A study of Homo sapiens with 42 samples.

Results

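The ID genes (ID1, ID2, ID3 and ID4) and the genes of the inhibitory SMADs (SMAD6 and SMAD7) were described by their messenger RNA signals in RPMI-8226, an established human multiple myeloma cell line. They are 6 of the 14705 genes tested on Affymetrix U133 Plus 2 arrays. The family was chosen by the signals of ID1 and ID3 on these arrays, which were lower at later times in culture, so every value over time is given as a description, without a test. Members were read from all probe sets annotated to them: 14 were annotated to a single member, 10 of these passed the filter on low signals, and the 4 that did not were all probe sets of ID4. Another probe set is annotated to ID2 and a second gene and was not used.

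The cells carried a stably integrated, doxycycline-inducible shRNA, a hairpin RNA that lowers its target's transcript, either against BMI1, a subunit of the Polycomb repressive complex PRC1, or a control hairpin. Each hairpin is represented by a single infected line. Both lines were kept in a medium with 1% fetal bovine serum, and the hairpin was switched on with 100 ng/ml doxycycline. Arrays were made without doxycycline at 0 h and with and without it at 24, 32 and 48 h, which gave 14 groups of 3 arrays and 42 arrays in all. The labels of the BMI1-shRNA arrays at 0 h conflict: by their title they had no doxycycline, by their characteristics they had it, and their source name puts them in the control line. Their genome-wide signals correlated at 0.971 to 0.973 with the mean of the control-shRNA line and at 0.989 to 0.991 with that of the BMI1-shRNA line.

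BMI1 itself set the induced BMI1-shRNA arrays apart from all others, but could not check the times or the doxycycline labels of the control-shRNA line. Its probe set read 139.8 to 234 on the induced BMI1-shRNA arrays, 758.3 to 1128.8 on the uninduced ones from 24 to 48 h, 1009.3 to 1069.4 at 0 h and 1117.2 to 1363.7 in the control-shRNA line. Of 10 plasma cell markers, 8 had a median signal over 100, while SLAMF7 read 2.9 and CD27 14.6. Markers of T cells and monocytes had median signals of at most 16.4 and 24.3, and the B cell markers MS4A1 and PAX5 read 54.9 and 36.2. Of the epithelial markers EPCAM, KRT18, CDH1 and KRT8 read 3285, 1917, 181.2 and 43.3, and of 4 fibroblast markers only COL1A1, at 118, had a median over 100. The labels do not say whether the 3 replicates of a group were separate cultures, so the p-values reflect the scatter of arrays, which may be technical.

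ID proteins are helix-loop-helix proteins without a DNA-binding region. They pair with E proteins such as TCF3, TCF4 and TCF12 and keep them from DNA. In the B lineage, E proteins drive immunoglobulin and differentiation genes, and ID proteins limit them. ID genes are classic early targets of bone morphogenetic protein (BMP) signalling, in which a ligand joins type I and type II receptors, the receptors phosphorylate SMAD1, SMAD5 or SMAD9, and these enter the nucleus with SMAD4. SMAD6 and SMAD7 are induced by the same family of signals and block the receptors and the SMADs, which makes them feedback inhibitors. BMPs are known to slow the growth of many myeloma cell lines.

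The RefSeq sequences of the 250 bases before the gene start are shown for ID1 and ID3, the members on which the pattern over time rests. Capitals mark every match, on either strand, to the motifs searched. The ID1 window lies at chr20:31605039-31605288 on the plus strand and the ID3 window at chr1:23559502-23559751 on the minus strand of GRCh38.p14, directly upstream of the annotated transcript and outside it.
ID1: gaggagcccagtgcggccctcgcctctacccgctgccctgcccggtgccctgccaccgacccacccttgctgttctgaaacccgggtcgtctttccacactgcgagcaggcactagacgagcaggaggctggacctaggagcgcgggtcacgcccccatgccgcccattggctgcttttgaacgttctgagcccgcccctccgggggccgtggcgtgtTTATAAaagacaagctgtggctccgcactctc
ID3: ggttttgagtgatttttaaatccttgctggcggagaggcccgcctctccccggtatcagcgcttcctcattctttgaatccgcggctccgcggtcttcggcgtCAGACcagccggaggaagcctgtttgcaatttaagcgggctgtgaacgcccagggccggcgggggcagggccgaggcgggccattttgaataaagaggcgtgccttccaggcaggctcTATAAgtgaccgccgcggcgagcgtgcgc

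The motifs searched were GGCGCC, a GC-rich SMAD-binding sequence, GTCTG, which contains the core SMAD-binding sequence, TGACGTCA, the cyclic AMP response element, and CAGCTG, an E-box. TATAA, the TATA box core, was added after the sequences had been seen. In ID1 the capitals are TATAA read on either strand, overlapping, the first beginning 32 bases before the start. In ID3 they are TATAA, beginning 29 bases before the start, and GTCTG on the opposite strand, 147 bases before it. TATAA was also found in the window of ID4, in 1 of the 3 windows of SMAD7, and not in those of ID2 or SMAD6. GTCTG was also found in the window of ID4 and in some windows of SMAD7, and not in those of ID1, ID2 or SMAD6. CAGCTG was found in the windows of ID2 and ID4 and of no other member. GGCGCC and TGACGTCA were found in no window of a member. Sequence farther upstream was not searched, so sites there would not be seen. Over the 35116 windows of this length in the table, 18.9% held TATAA, 38% GTCTG, 16.4% GGCGCC, 14% CAGCTG and 1.65% TGACGTCA. The GC share was 66% in ID1 and 62% in ID3, against a median of 58% over all windows.

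Signals are linear MAS5 values. ID1, the best known BMP target of the family, read 122.3, 130.3 and 149.8 on the control-shRNA arrays at 0 h. Without doxycycline it then read 84.1, 103.1 and 84 at 24 h, 93.9, 104.1 and 100.8 at 32 h, and 68, 58.3 and 44.4 at 48 h. All 9 later arrays lay below the 0 h arrays, and the 48 h arrays also lay below those at 24 and 32 h. Differences are given as log2(signal + 5.4), with standard errors from the model over all arrays; the added constant makes changes at low signals look smaller. On that scale ID1 at 48 h differed from 0 h by -1.18 ± 0.16, a 2.26-fold lower level.

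In the BMI1-shRNA line ID1 started higher, at 208.3, 225.9 and 236.9. It read 95.2, 93.6 and 71.5 at 24 h, 100.4, 110.1 and 94.8 at 32 h, and 62.7, 59.4 and 53.5 at 48 h without doxycycline. From 24 h on the arrays overlapped those of the control-shRNA line at the same time, and the 48 h arrays lay lowest. The difference from 0 h was -1.32 ± 0.16 at 24 h, -1.10 ± 0.16 at 32 h and -1.84 ± 0.16 at 48 h, the last a 3.59-fold lower level. In the control-shRNA line the differences at 24 and 32 h were -0.54 ± 0.16 and -0.41 ± 0.16. A comparison of 48 with 24 h does not need the arrays with conflicting labels: it gave -0.52 ± 0.16 in the BMI1-shRNA line and -0.63 ± 0.16 in the control-shRNA line without doxycycline.

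**Figure D1:**
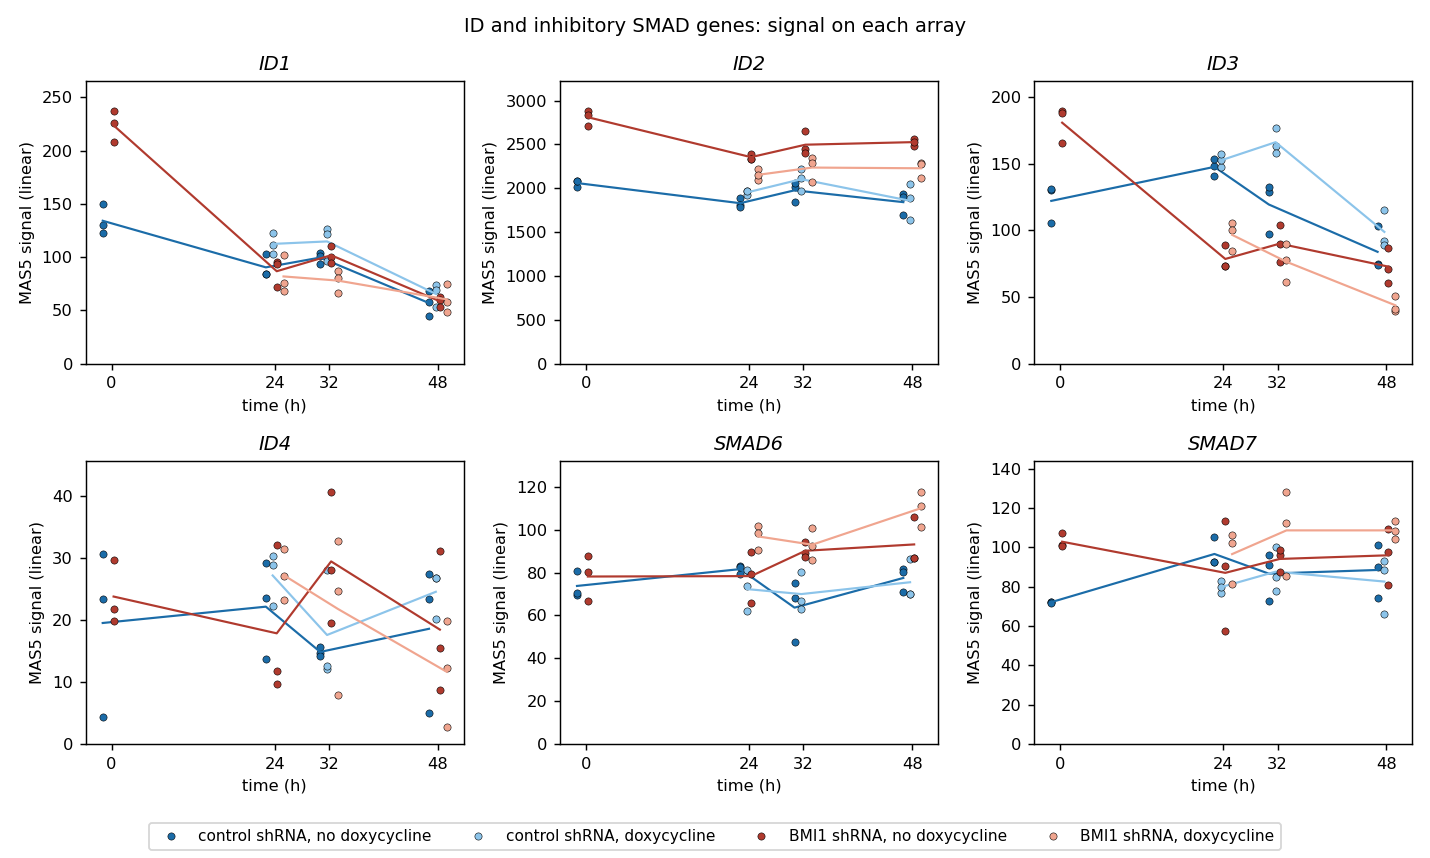
Linear MAS5 signal of the probe set representing each member on each array, against time in hours; points are arrays, 3 per group, lines join group means, and points are moved slightly sideways by line and doxycycline. ID1 lies highest at 0 h in both lines, ID3 lies highest at 0 h only among the BMI1-shRNA arrays, and the spread of ID4 within groups is as wide as its differences between them.

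ID3, which restrains E proteins in lymphocytes, followed another course in the control-shRNA line. It read 129.9, 130.9 and 105.5 at 0 h, then 148.6, 140.8 and 153.5 at 24 h, 128.8, 132.5 and 96.9 at 32 h, and 75, 102.9 and 73.7 at 48 h without doxycycline. The 24 h arrays all lay above those of 0 h and the 48 h arrays all below them. The differences from 0 h were 0.27 ± 0.15, -0.04 ± 0.15 and -0.52 ± 0.15. In this line the lower level of ID3 therefore appeared at 48 h, whereas ID1 was already lower at 24 h.

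In the BMI1-shRNA line ID3 read 189.3, 165.2 and 187.8 at 0 h. Without doxycycline it read 73.6, 88.9 and 73.1 at 24 h, 89.9, 104.1 and 76.1 at 32 h, and 71.1, 86.8 and 60.4 at 48 h. All later arrays lay far below 0 h, and the 3 later times overlapped one another. The differences from 0 h were -1.15 ± 0.15, -0.97 ± 0.15 and -1.26 ± 0.15. From 24 to 48 h ID3 differed by only -0.11 ± 0.15 in this line, against -0.79 ± 0.15 in the control-shRNA line, and the difference between these values was not tested. Without doxycycline the lower level of ID3 in the BMI1-shRNA line therefore rests on its 0 h arrays, whose labels conflict.

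ID2, which in many cell types limits E protein activity during differentiation, read 2010.6, 2086.2 and 2082.4 at 0 h in the control-shRNA line. At 48 h without doxycycline it read 1931.7, 1900.7 and 1693.5. In the BMI1-shRNA line it read 2877.8, 2714 and 2839.6 at 0 h and 2567.6, 2483.3 and 2529 at 48 h. The 48 h arrays lay below the 0 h arrays in both lines, by -0.16 ± 0.06 and -0.15 ± 0.06. At 24 h the differences from 0 h were -0.17 ± 0.06 and -0.25 ± 0.06. At 32 h the control-shRNA arrays overlapped those at 0 h, and the difference ranked 6228 from the lowest of 14705 genes. The BMI1-shRNA arrays at 32 h lay wholly below 0 h, at rank 2555. From 24 to 48 h the signal differed by 0.01 ± 0.06 and 0.10 ± 0.06, so there was no decline between these times.

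ID4, the remaining ID gene, had a signal near the middle of the array. Its representing probe set was no lower than the median of its array on 26 of 42 arrays, and ranged from 2.8 to 40.7. Within single groups it ran as wide as 4.4, 23.4 and 30.7 at 0 h in the control-shRNA line. The difference of 48 h from 0 h was -0.02 ± 0.46 in the control-shRNA line and -0.39 ± 0.46 in the BMI1-shRNA line, with overlapping groups in both. The 95% intervals, -0.95 to 0.91 and -1.31 to 0.54, were the widest of the 6 members.

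Unlike ID1, neither inhibitory SMAD had 48 h arrays wholly below its 0 h arrays in either line, read from its representing probe set. SMAD6, which acts mainly on the BMP branch, read 69.8, 80.9 and 70.7 at 0 h and 81.6, 80.1 and 70.9 at 48 h in the control-shRNA line without doxycycline. It read 80.2, 87.8 and 66.6 at 0 h and 86.7, 87 and 105.9 at 48 h in the BMI1-shRNA line. Groups overlapped in both lines, and the differences were 0.07 ± 0.14 and 0.24 ± 0.14. The 95% intervals ran from -0.22 to 0.35 and from -0.04 to 0.52. The other 3 probe sets of SMAD6 were dim, with median signals of 13.2, 8.6 and 11.3, and averaging all 4 turned the differences to -0.07 and -0.08.

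SMAD7, which acts on both the BMP and the TGF-beta branch, read 72.1, 72.4 and 71.7 at 0 h in the control-shRNA line. It read 92.3, 105.1 and 92.3 at 24 h and 100.9, 74.4 and 90 at 48 h without doxycycline. The later arrays all lay above the narrow 0 h group, by 0.39 ± 0.16 at 24 h and 0.27 ± 0.16 at 48 h. In the BMI1-shRNA line it read 107.1, 100.9 and 100.4 at 0 h and 97.5, 80.8 and 109.4 at 48 h. These groups overlapped, and the difference was -0.10 ± 0.16. At 24 and 32 h SMAD7 was also lower than at 0 h in this line without doxycycline. The differences ranked 1883 and 3576 from the lowest of 14705 genes, and the 32 h arrays lay wholly below those at 0 h.

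Of the 6 members, 3 (ID1, ID2 and ID3) had 48 h arrays that lay wholly below the 0 h arrays, in each line. Among all 14705 genes, 10.4% did so in the control-shRNA line and 10.4% in the BMI1-shRNA line. SMAD7 lay wholly above its narrow 0 h group in the control-shRNA line. The share of all genes that lay wholly above was not counted, so nothing is read from this. By the limma test, 5.07% of all genes differed between 48 and 0 h in the control-shRNA line and 4.46% in the BMI1-shRNA line. Because the fall with time led to the choice of the genes, nothing is read from the members' counts. The median difference over all genes was 0.01 in the control-shRNA line and 0.03 in the BMI1-shRNA line.

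**Figure D2:**
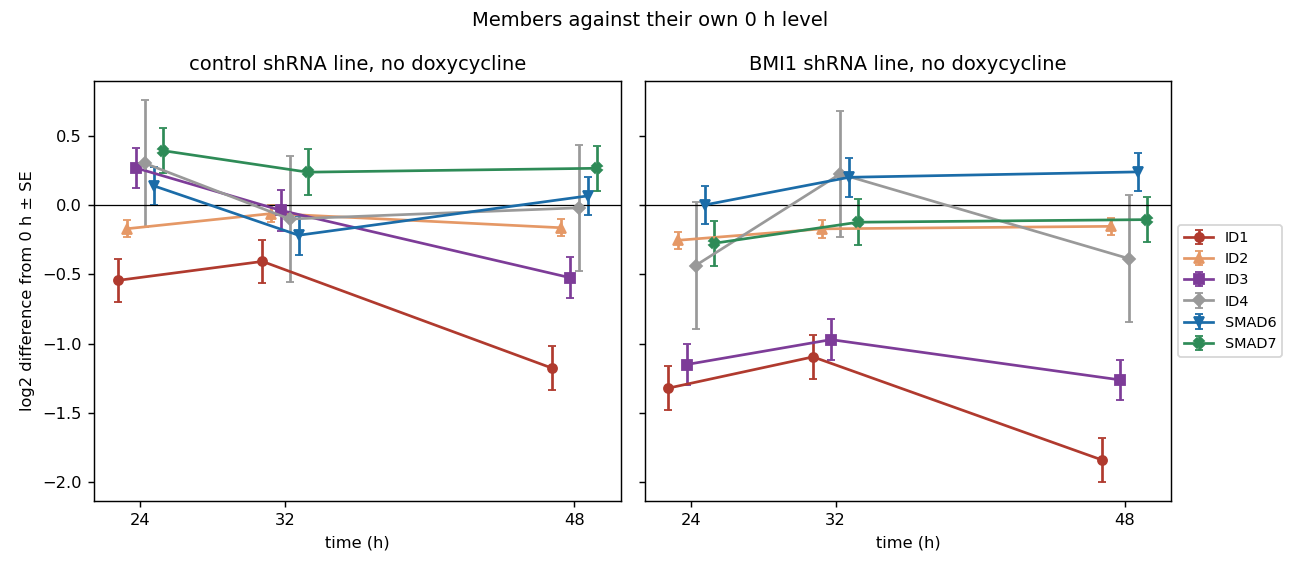
Log2 difference from 0 h of the same line at 24, 32 and 48 h without doxycycline, for each member; points are estimates over 3 arrays a group and bars are standard errors. ID1 ends at -1.18 and -1.84 and ID3 at -0.52 and -1.26, while SMAD6 and SMAD7 stay between -0.28 and 0.39 at every time.

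Arrays with doxycycline were made from 24 h on. In the control-shRNA line ID1 read 111.7, 102.5 and 123 at 24 h, 126.1, 96.7 and 121.4 at 32 h, and 73.7, 53.4 and 69.3 at 48 h. ID3 read 147.3, 153.1 and 157.3 at 24 h, 177, 163.2 and 158.2 at 32 h, and 115.1, 92.3 and 89.1 at 48 h. For both genes the 48 h arrays lay below all earlier ones of that arm. From 24 to 48 h the differences were -0.74 ± 0.16 for ID1 and -0.61 ± 0.15 for ID3.

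In the induced BMI1-shRNA line ID1 read 67.8, 76 and 101.8 at 24 h, 87, 66.7 and 80.2 at 32 h, and 75.1, 57.8 and 48.2 at 48 h. The times overlapped, and ID1 differed by -0.41 ± 0.16 from 24 to 48 h. ID3 read 84.4, 105.3 and 100.2 at 24 h, 77.6, 61.6 and 90 at 32 h, and 39.8, 50.5 and 41.1 at 48 h. These last 3 signals lay below those of ID3 on every other array of the series. From 24 to 48 h ID3 differed by -1.05 ± 0.15, a 2.08-fold lower level. ID4 differed by -1.08 ± 0.46 over the same interval, and this rests partly on a single array at 2.8.

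Induction of the BMI1 hairpin was compared with no doxycycline at the same times. The genes were chosen by signals that include these arrays, so the tests are not wholly independent of the choice. Over the mean of 24, 32 and 48 h, 1 of the 6 members passed the limma test at an adjusted p under 0.05, against 8.3% of all genes. That member was ID2, which was lower by -0.16 ± 0.04 (limma adjusted p = 0.00323), with signals of 2206 ± 100.4 with and 2460 ± 107.3 without doxycycline (SD, n = 9 each). At each of the 3 times the induced arrays of ID2 lay wholly below the uninduced ones. At 24 h the induced arrays read 2220.5, 2089.1 and 2149.7 and the others 2392.4, 2333.6 and 2339. A second probe set of ID2, with a median signal of 727, gave -0.11 ± 0.07 (limma adjusted p = 0.483) and did not pass, and the mean of both probe sets gave an adjusted p of 0.0687 in the limma fit. The call on ID2 thus rests on its brighter probe set.

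The other 5 members did not pass on the mean of the times. ID1 differed by -0.14 ± 0.09 (limma adjusted p = 0.423) and ID3 by -0.20 ± 0.09 (adjusted p = 0.162). SMAD6 differed by 0.19 ± 0.08 (limma adjusted p = 0.167), or by -0.04 with its probe sets averaged, and SMAD7 by 0.18 ± 0.10 (adjusted p = 0.309). ID4 differed by -0.12 ± 0.26 (limma adjusted p = 0.879). The median over the members was -0.13, against 0.02 over all genes.

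By time, the effect of induction on ID3 ran from 0.28 ± 0.15 at 24 h through -0.23 ± 0.15 at 32 h to -0.66 ± 0.15 at 48 h. At 48 h it passed the limma test (adjusted p = 0.00277): the induced arrays read 39.8, 50.5 and 41.1 and the uninduced ones 71.1, 86.8 and 60.4, without overlap, a 1.58-fold lower level. These induced arrays also belong to the fall with time by which ID3 was chosen, so the test is not independent support. ID3 was the only member called at that time, when 5.37% of all genes were called. No member was called at 24 h, with 1.61% of all genes, or at 32 h, with 2.19%, and 2 members had an unadjusted p under 0.05 at each of these times, as did 1641 and 1635 of all 14705 genes. ID1 differed by -0.09 ± 0.16, -0.37 ± 0.16 and 0.02 ± 0.16 at 24, 32 and 48 h and was not called. With only the arrays of the comparison in the fit, the adjusted p of ID3 at 48 h was 0.128.

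In the control-shRNA line doxycycline served as the background measurement of the drug and of a hairpin without this target. No member passed the limma test over the mean of the times, when 0.129% of all genes did, and 2 members, ID1 and ID3, had an unadjusted p under 0.05, as did 882 of all genes. ID1 read 44.4 to 104.1, median 84.1, without and 53.4 to 126.1, median 102.5, with doxycycline over 9 arrays each. Its difference was 0.23 ± 0.09 (limma adjusted p = 0.694). ID3 differed by 0.25 ± 0.09 (limma adjusted p = 0.514), with medians of 128.8 without and 153.1 with doxycycline. ID2 differed by 0.06 ± 0.04, ID4 by 0.29 ± 0.26, SMAD6 by -0.02 ± 0.08 and SMAD7 by -0.11 ± 0.10. At 24, 32 and 48 h, 0.0408%, 0.0476% and 0.0476% of all genes were called and no member was; 0, 1 and 0 members had an unadjusted p under 0.05, against 549, 834 and 873 of all genes.

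**Figure D3:**
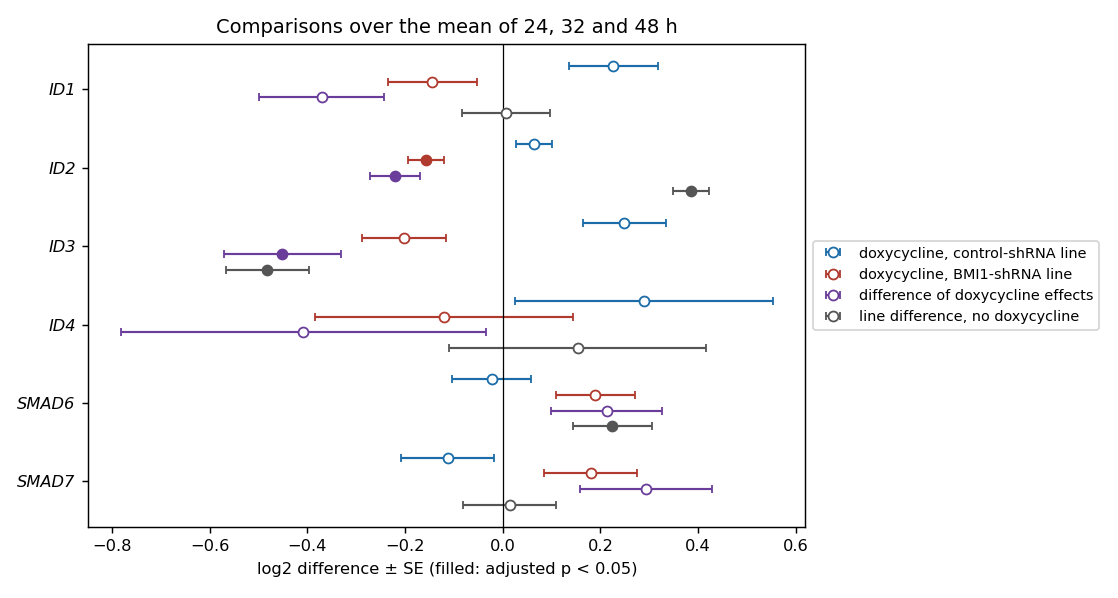
Log2 differences with standard errors for each member over the mean of 24, 32 and 48 h (9 arrays a group): doxycycline against none in each line, the difference between these effects, and the BMI1-shRNA line against the control-shRNA line without doxycycline. Filled points passed an adjusted p under 0.05: ID2 in 3 comparisons, ID3 in 2 and SMAD6 in 1.

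The effects of doxycycline in the lines were then set against each other. Over the mean of the times, 2 of the 6 members differed between the lines, against 3.79% of all genes. ID2 differed by -0.22 ± 0.05 (limma adjusted p = 0.00684), being lower with doxycycline in the BMI1-shRNA line and slightly higher in the control-shRNA line. Its second probe set gave -0.06 ± 0.10 (limma adjusted p = 0.88). ID3 differed by -0.45 ± 0.12 (limma adjusted p = 0.0222), the sum of the lower value in the BMI1-shRNA line and the higher value in the control-shRNA line, neither of which passed alone. The ID3 value includes arrays of the fall with time by which ID3 was chosen, so it is not independent support. ID1 had the same signs and differed by -0.37 ± 0.13 (limma adjusted p = 0.112), and passed, at 0.0481, only without 1 induced BMI1-shRNA array, replicate 3 at 24 h, which read 101.8.

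SMAD6 and SMAD7 had the opposite sign, with 0.21 ± 0.11 (limma adjusted p = 0.43) and 0.29 ± 0.13 (adjusted p = 0.314). Their 95% intervals ran from -0.02 to 0.44 and from 0.02 to 0.57. Averaging the probe sets of SMAD6 turned its difference to -0.21. ID4 differed by -0.41 ± 0.37 (limma adjusted p = 0.717).

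At single times the line difference in the doxycycline effect called 0.354% of all genes at 24 h, 0.938% at 32 h and 2.56% at 48 h. ID3 was the member called, at 48 h, with -0.89 ± 0.21 (limma adjusted p = 0.00909), a 1.85-fold difference. The induced BMI1-shRNA arrays used here belong to the fall with time by which ID3 was chosen, so this test is not independent support. At 24 and 32 h ID3 differed by 0.24 ± 0.21 and -0.70 ± 0.21 (limma adjusted p = 0.876 and 0.116). No member was called then, with 2 and 3 members at an unadjusted p under 0.05, against 979 and 1403 of all genes. Without replicate 2 of the uninduced BMI1-shRNA arrays at 48 h, which read 86.8, ID3 differed by -0.77 at 48 h and its limma adjusted p was 0.0515. With only the arrays of the comparison in the fit it was 0.142.

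**Figure D4:**
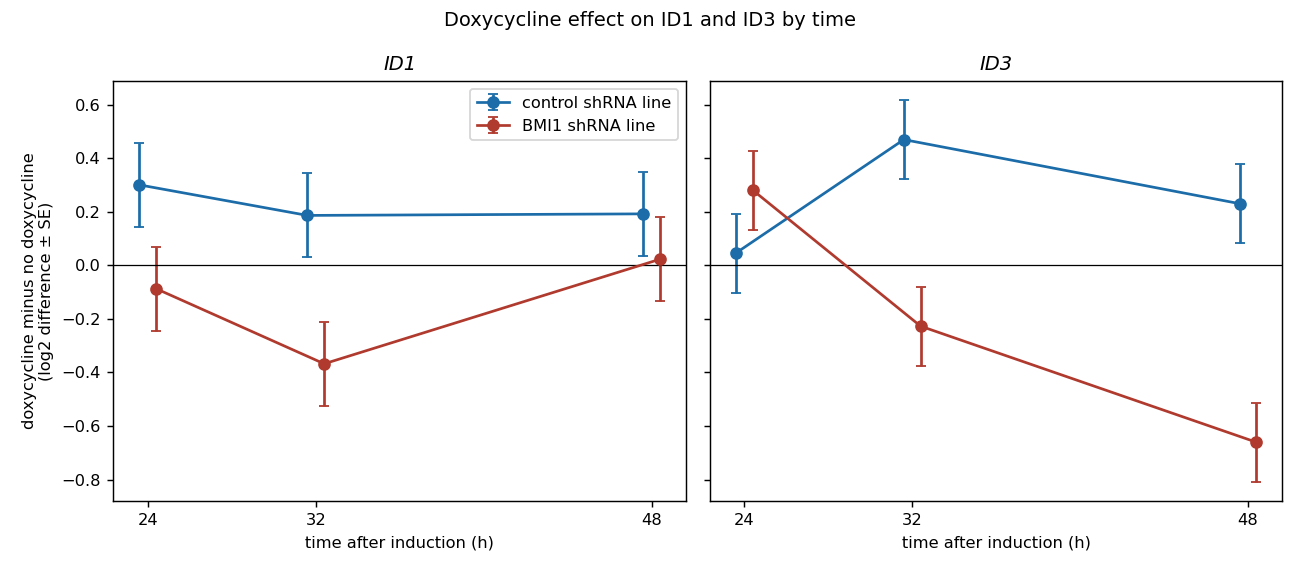
Doxycycline minus no doxycycline for ID1 and ID3 at 24, 32 and 48 h in each line, as log2 differences with standard errors (3 arrays a group). For ID3 the BMI1-shRNA line moves from 0.28 at 24 h to -0.66 at 48 h while the control-shRNA line stays between 0.05 and 0.47; for ID1 the lines end at 0.02 and 0.19.

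The lines also differed without doxycycline. Over the mean of 24, 32 and 48 h, 3 of the 6 members differed between the BMI1-shRNA and the control-shRNA line, against 43.8% of all genes, so the share of members is close to the background. ID2 was higher in the BMI1-shRNA line, with signals of 2333.6 to 2649.7 against 1693.5 to 2065.8, by 0.39 ± 0.04 (limma adjusted p = 1.64e-11), and the 9 arrays of each line did not overlap. Its second probe set was higher by 0.30 ± 0.07 (limma adjusted p = 0.000953). The BMI1-shRNA line had less ID3 signal, by -0.48 ± 0.09 (limma adjusted p = 9.87e-06), with medians of 76.1 and 128.8 and overlapping ranges. The arrays used here belong to the fall with time by which ID3 was chosen, so this test is not independent support. At 0 h the order of ID3 was the opposite: the BMI1-shRNA arrays, whose labels conflict, read 165.2 to 189.3 and the control-shRNA arrays 105.5 to 130.9.

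SMAD6 signal was higher in the same line by 0.22 ± 0.08 (limma adjusted p = 0.0215), with medians of 87.1 and 79.2 over 9 arrays each. Its call was lost without any 1 of 3 arrays: replicate 1 of the BMI1-shRNA line at 24 h (adjusted p = 0.0597), replicate 2 of the control-shRNA line at 32 h (0.0835) and replicate 3 of the BMI1-shRNA line at 48 h (0.0569), all in limma. It was also lost when the probe sets of SMAD6 were averaged (0.30, limma adjusted p = 0.112). ID1, ID4 and SMAD7 differed by 0.01 ± 0.09, 0.15 ± 0.26 and 0.01 ± 0.10 and did not pass. The ratio of the GAPDH 3' to 5' probe sets, a sign of RNA integrity, was 0.935 ± 0.0251 in the BMI1-shRNA line and 1.03 ± 0.0401 in the control-shRNA line (SD, n = 21 each). Its part in the line differences was not tested. Pooled over 24, 32 and 48 h, the ratio was 0.93 with and 0.941 without doxycycline in the BMI1-shRNA line. In the control-shRNA line it was 1.031 and 1.018. Single groups differed more: at 32 h it was 0.903 with and 0.943 without doxycycline in the BMI1-shRNA line. The control-shRNA values at 32 h were 1.066 and 0.998, and that line had 1.064 at 0 h.

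The rest of the pathway was read from 7 lists of 150 genes, of which 111 were tested. On induction of the BMI1 hairpin, over the mean of the times, 6 rose and 6 fell, 10.8% of those tested against the 8.3% of all genes. In the control-shRNA line none passed by limma, and 7 had an unadjusted p under 0.05, against 882 of all genes. Between the lines 6 differed in the doxycycline effect, 2 upwards and 4 downwards, 5.41% of those tested against 3.79% of all genes.

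Among the receptors and co-receptors, 3 of 13 rose and 1 fell on induction. ACVR1, a type I receptor for BMPs and activins, rose by 0.26 ± 0.06 (limma adjusted p = 0.00226), from 148.6 ± 11.4 to 178.7 ± 13 (SD, n = 9 each). BMPR1B, a type I BMP receptor, rose by 0.25 ± 0.05, and TGFBR3, a co-receptor that presents TGF-beta, by 0.23 ± 0.07. TGFBR1, the type I TGF-beta receptor, fell by 0.15 ± 0.04 on its brightest probe set, and the mean of its probe sets gave 0.07. BMPR2, the type II BMP receptor, differed by -0.17 ± 0.06 (limma adjusted p = 0.0518) and did not pass. The call on TGFBR3 was lost without any 1 of 5 arrays. BMPR1A had no probe set that could be tested.

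Of the 6 receptor-regulated and common SMADs, SMAD4 passed the test on induction. SMAD4, the partner that all receptor-regulated SMADs need, read 650.9 to 775.9, median 726.4, without and 488.9 to 592.1, median 544.9, with doxycycline in the BMI1-shRNA line. The 9 induced arrays all lay below the 9 uninduced ones. The difference was -0.40 ± 0.05 (limma adjusted p = 4.76e-08), and against the control-shRNA line it was -0.42 ± 0.07 (limma adjusted p = 3.2e-05). In the control-shRNA line the medians were 687.2 without and 696 with doxycycline. SMAD1 and SMAD5, which carry BMP signals, had mean signals of 899.3 and 495.4 without and 869.9 and 531.8 with doxycycline in the BMI1-shRNA line and did not pass; SMAD5 differed by 0.10 ± 0.04 (limma adjusted p = 0.137).

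No ligand of the 21 tested passed the limma test, and 3 had an unadjusted p under 0.05, as did 2792 of all 14705 genes. BMP6, a ligand that acts through the BMP receptors, read 100.4 ± 21.7 without and 104 ± 12.6 with doxycycline in the BMI1-shRNA line, and TGFB1 read 710.3 ± 28.7 and 659.1 ± 33.4 (SD, n = 9 each). BMP4 had no probe set that could be tested. Of 9 antagonists, TWSG1, which binds BMPs outside the cell, fell by 0.34 ± 0.06, and BAMBI, a decoy receptor without a kinase, rose by 0.29 ± 0.05, from limma fits with adjusted p of 2.73e-05 and 0.000139.

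Among the intracellular modulators, SMURF2 and WWP1, ubiquitin ligases that act on SMADs and receptors, rose by 0.20 ± 0.06 and 0.15 ± 0.04. FKBP1A, which binds type I receptors and keeps them inactive, fell by 0.14 ± 0.03, and TOB1, an antiproliferative protein that dampens BMP signals, by 0.19 ± 0.06. Of 21 other known targets of BMP or TGF-beta signalling none passed by limma. An unadjusted p under 0.05 was reached by 3 of these targets, and by 2792 of all 14705 genes. TCF4, an E protein that ID proteins bind, fell by 0.14 ± 0.04, from 5315 ± 260.8 to 4814 ± 314.4 (SD, n = 9 each). The other E proteins TCF3 and TCF12 had mean signals of 853.8 and 1070 without and 758.1 and 1020 with doxycycline and did not pass. The calls on TOB1 and TCF4 were each lost without any 1 of 11 of the 18 arrays compared, and that on WWP1 without any 1 of 7.

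**Figure D5:**
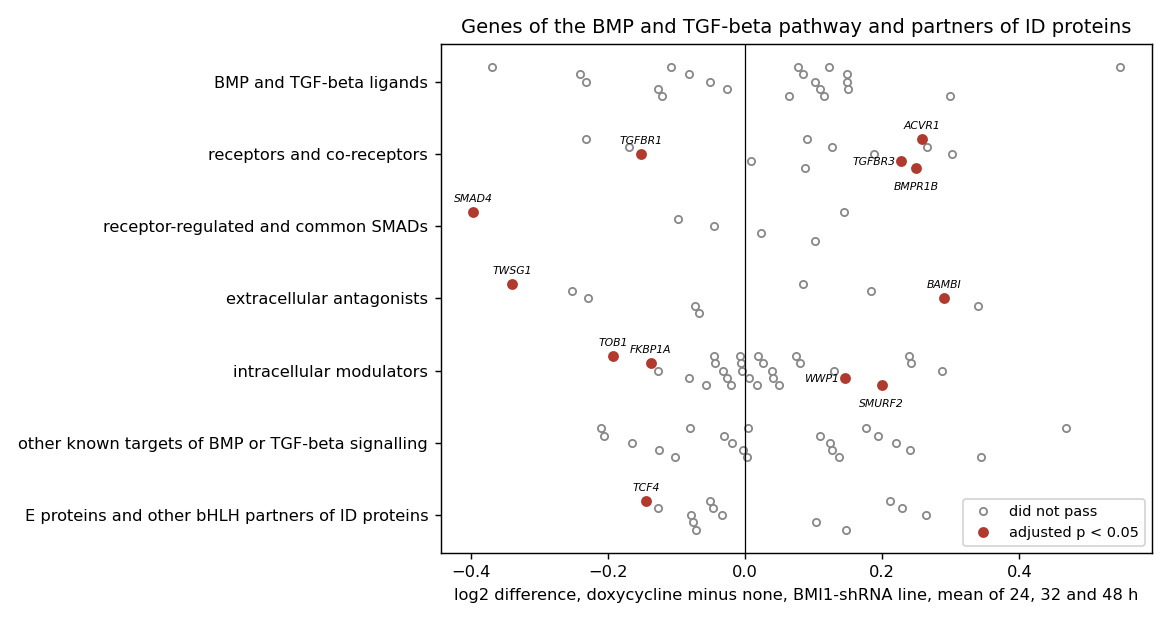
Log2 difference between doxycycline and none in the BMI1-shRNA line over the mean of 24, 32 and 48 h for the 111 tested genes of the 7 lists, 1 point a gene, spread vertically for legibility. The 12 filled, named genes passed an adjusted p under 0.05, with SMAD4 at -0.40 lowest and BAMBI at 0.29 highest among them.

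Between the lines, ACVR1 (0.31 ± 0.08) and BAMBI (0.29 ± 0.07) rose more with doxycycline in the BMI1-shRNA line, and SMAD4, TWSG1 (-0.29 ± 0.08), TOB1 (-0.28 ± 0.08) and TGFBR1 (-0.19 ± 0.05) went lower, though the mean of the probe sets of TGFBR1 gave 0.19. Removal of any 1 of 24 of the 36 arrays ended the call on TOB1, any 1 of 9 that on TWSG1 and any 1 of 3 that on TGFBR1.

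Without doxycycline 57 of the 111 tested genes, 51.4%, differed between the lines, 26 higher and 31 lower in the BMI1-shRNA line, against 43.8% of all genes. Of the receptors, TGFBR1 (1.92 ± 0.04), TGFBR2 (1.28 ± 0.11) and TGFBR3 (0.97 ± 0.07) were higher and BMPR1B (-1.15 ± 0.05) was lower. Among the SMADs, SMAD1 (0.27 ± 0.05) and SMAD2 (0.09 ± 0.03) were higher and SMAD5 (-0.44 ± 0.04) and SMAD9 (-0.39 ± 0.15) lower. Of 21 ligands 3 were higher and 5 lower. INHBE (-1.72 ± 0.18), BMP6 (-0.60 ± 0.10), NODAL (-0.59 ± 0.22) and BMP2 (-0.58 ± 0.19) were lower, the last pair from dim probe sets with median signals of 19.2 and 17.9. The 3 that were higher, BMP7 (0.43 ± 0.04), GDF11 (0.26 ± 0.08) and TGFB1 (0.14 ± 0.04), had smaller differences; BMP7 and GDF11 were named after their values had been seen.

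Among the antagonists CHRDL1 (-0.91 ± 0.21) and TWSG1 (-0.80 ± 0.06) were lower and CER1 (0.53 ± 0.20) and BAMBI (0.51 ± 0.05) higher. CHRDL1, CER1 and the target gene TGFBI were dim, with median signals of 10.5, 15.9 and 9.05. The modulators PMEPA1 (-0.94 ± 0.10) and TOB1 (-0.48 ± 0.06) were lower and FKBP1A (0.54 ± 0.03) and TGIF2 (0.50 ± 0.07) higher. Of the known targets, CDKN2B (1.37 ± 0.13), a cell cycle inhibitor, and TGFBI (1.02 ± 0.26) were higher, and HES1 (-1.002 ± 0.14) and LTBP1 (-0.91 ± 0.08) lower. Among the partners of ID proteins, BHLHE41 (4.02 ± 0.10), a repressor with a helix-loop-helix region, and LYL1 (0.88 ± 0.20) were higher and BHLHE40 (-1.01 ± 0.07) and HES6 (-0.79 ± 0.12) lower. TCF4 was higher by 0.39 ± 0.05 and TCF12 lower by 0.14 ± 0.04. The calls on SMAD9, CER1, NODAL and SMAD2 were each lost without 1 of several arrays, 9, 8, 4 and 4 of the 18 compared.

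For genes of the pathway that are no members, the time comparison was tested. From 0 to 48 h without doxycycline 10 of 111, 9.01%, passed in the control-shRNA line against 5.07% of all genes, and 5, 4.5%, in the BMI1-shRNA line against 4.46%, and 4 did so in the same direction in both. RUNX2, a transcription factor that works with SMADs, rose by 1.05 ± 0.10 and 0.55 ± 0.10. INHBE, an activin subunit gene, rose by 1.13 ± 0.30 and 1.02 ± 0.30, and BMPR2 by 0.35 ± 0.10 and 0.33 ± 0.10. KLF11, a transcription factor of the TGF-beta response, fell by 0.47 ± 0.14 and 0.50 ± 0.14. Without 1 array the call was lost for KLF11 in all 6 such fits of the control-shRNA line and 5 of 6 of the BMI1-shRNA line, for BMPR2 in 4 and 5, and for INHBE in 4 and 4. For RUNX2 it was lost in none of them. Over all genes 234 passed in the same direction in both lines.

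Members varied together only in part. Over the 14 group means of log2 signal, with each line's mean subtracted, ID1 and ID3 had a Pearson r of 0.869, ID1 and ID2 of 0.743, and SMAD6 and SMAD7 of 0.421. ID1 and SMAD6 had an r of -0.605. The points share time and doxycycline groups, and ID1 and ID3 were chosen for their fall over these times, so the value for this pair follows largely from the choice. Within groups, over the deviations of the 42 arrays from their group means, r was 0.231 for ID1 and ID3 and 0.061 for both ID1 with ID2 and SMAD6 with SMAD7.

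The genes whose group means were most like those of ID1 were sought among 7352 genes by the same correlation over 14 groups. GCLM, a subunit of the enzyme that starts glutathione synthesis, came first with an r of 0.947, followed by NDUFAF4 (0.926), RPF1 (0.924), PDHX (0.918) and ALG5 (0.917). For ID3 they were HDAC1, a histone deacetylase, with 0.94, MZT1 (0.934), PHTF2 (0.928), PLAA (0.918) and CREM (0.914). Their differences over time were smaller than those of ID1 and ID3: GCLM differed between 48 and 0 h by -0.38 in the control-shRNA and -0.52 in the BMI1-shRNA line, and HDAC1 by -0.13 and -0.11. ID1 and ID3 were chosen for their fall over these times, so the smaller differences of other genes follow largely from the choice.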

How the data were processed

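The authors deposited 1 table of linear MAS5 signal intensity per probe set; MAS5 is named, without a version, per the submitters' processing notes. Each array's mean intensity after trimming 2% at each end was 150.02 to 150.03, so arrays had been scaled to a common target. Array medians ran from 16 to 22.5, and the number of arrays, 3 per group, limits the precision. Of 54675 probe sets, 62 array controls were left out, and 35235 were retained because on 3 or more of the 42 arrays they reached the median of that array. A gene was its brightest retained probe set annotated to it alone (GEO platform annotation, symbols updated through RefSeq), which gave 14705 genes from 28475 probe sets; 41091 probe sets had a single symbol, 1801 several and 11721 none. Values were log2(signal + 5.4), the constant being the 25th percentile of all values.

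A limma 3.58.1 model (R 4.3.3) with 14 group means was fitted to all arrays (eBayes with a trend on intensity; 28 residual and 8.64 prior degrees of freedom), with two-sided tests and Benjamini-Hochberg adjustment over all 14705 genes, and it was tested on simulated data. The members and the pathway lists were chosen with earlier results of these data known. All members are named; of the lists, every gene called on doxycycline, up to 4 per list with the largest called line differences, up to 4 per list called in both lines over time, and 12 core genes of the pathway. Gene likeness was ranked by Pearson r over line-centred group means, among genes with a mean log2 signal at or above the median gene's, 5 per member. Alternatives were other pseudocounts (1 and 18.8), quantile normalization, other filters, averaging the probe sets of each gene, testing every probe set, no trend, only the groups compared, a block on the replicate number, and fits without each array. Replicate numbers did not pair the arrays across all groups: deviations correlated at a mean r of 0.0018 between arrays of the same number and -0.0009 otherwise. Pairing limited to the arrays of a single line and time was not tested.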

Additional observations from a re-analysis of the deposited data

Results flagged for a closer look

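Members whose doxycycline effect differed between the lines, by the test of the difference itself, are listed here. The effect on ID2 was lower in the BMI1-shRNA line by a log2 difference of -0.22 over the mean of the 3 times, and its second probe set gave -0.06. The effect on ID3 was lower by -0.45 over the mean of the times. At 48 h alone the effect on ID3 was lower by -0.89, with effects of -0.66 in the BMI1-shRNA line and 0.23 in the control-shRNA line. Both values of ID3 include arrays of the fall with time by which it was chosen, so they are not independent support.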

How the results depend on the processing

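Results were recomputed under 11 alternatives and without each array in turn. The calls on ID2 and ID3 in the line comparison without doxycycline, and that on ID3 in the difference of the doxycycline effects over the times, were kept under every alternative run and without each array. Both calls on ID3 use arrays of the fall with time by which it was chosen, so they are not independent support. With the probe sets of each gene averaged, 0 members were called on BMI1 induction over the times, 1 at 32 h and 1 in the difference between lines, ID2 lost its calls (limma adjusted p = 0.0687 and 0.334), and SMAD6 lost its call between the lines (0.112). The same setting turned SMAD6 to -0.0357 and TGFBR1 to 0.0744 on induction, SMAD6 to 0.18 in the control-shRNA line, and SMAD6 to -0.21 and TGFBR1 to 0.19 in the difference. In the uninduced BMI1-shRNA line it turned SMAD6 to -0.17 at 32 h and -0.0833 at 48 h against 0 h, and to -0.37 from 24 to 48 h. Quantile normalization called 2 members on induction at 48 h and turned ID1 there to -0.0146. With only the groups of a comparison, which leaves fewer arrays, 0 members were called at 48 h on induction or in the difference. With the median of all values as pseudocount, ID1 differed by -1.65 between 48 and 0 h in the BMI1-shRNA line. The cause of these changes was not tested.

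Leaving out 1 array, values of either sign were reached by ID4 on BMI1 induction (-0.238 to 0.0322), SMAD6 in the control-shRNA line (-0.0829 to 0.0189), ID1 at 24 h (-0.245 to 0.03) and 48 h (-0.133 to 0.161) on induction, and ID2 from 24 to 48 h with doxycycline in the control-shRNA line (-0.15 to 0.0117). In the line comparison this held for ID1 (-0.0439 to 0.0494), ID4 (-0.0204 to 0.261) and SMAD7 (-0.0542 to 0.0987). Members called in the difference at 48 h ranged from 0 to 1. Of 54 calls on pathway genes, 34 were kept throughout, 19 were lost or turned in an alternative and 17 without an array. With a filter at the 75th percentile only ID1, ID2 and ID3 were tested.

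With the replicate number as a block, no member's call changed: the adjusted p in limma was 0.0038 for ID2 on induction, 0.00798 for ID2 and 0.0179 for ID3 in the difference, and 0.0258 for SMAD6 between the lines. On induction 1232 genes were called with the block and 1220 without it. Over all alternatives, calls ranged from 987 to 2054 on induction, 428 to 893 in the difference, 13 to 25 in the control-shRNA line and 5140 to 12362 between the lines, the highest where every probe set was tested. At 48 h they ranged from 414 to 1348 on induction and 159 to 583 in the difference, and from 0 to 48 h from 226 to 1253 and 298 to 892 in the lines.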
